A study of Homo sapiens with 9 samples.

Results

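The HOXD cluster is a row of 9 homeobox genes on human chromosome 2, and its chromatin was described in LNCaP cells, an established human prostate cancer line, with and without knockdown of EZH2. Members were all regions of 6 deposited peak lists that overlapped a window of 125 kb on hg19, chr2:176940000-177065000, which holds the cluster from the start of HOXD13 at 176957532 to the end of HOXD1 at 177055635. The window was chosen by position, with earlier results of these data known. It held 102 of the 335291 listed regions. These were 13 EZH2 peaks in shEZH2 and 17 in control, 11 H3K27me3 regions in shEZH2 and 61 in control, and 0 H3K27ac regions in either.

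The groups were LNCaP cells infected with a lentivirus that knocks down EZH2 (shEZH2), and LNCaP cells with plko.1, the lentiviral hairpin vector (control). Both were grown in RPMI with serum and fixed with 1% paraformaldehyde, and the labels give 2 to 3 days between infection with the knockdown virus and fixation. Chromatin immunoprecipitation with sequencing used the same antibody in both groups, against EZH2 and H3K27me3 (both CST) and H3K27ac (abcam). Each of the 6 groups was 1 library, and 3 other samples were left out. The libraries held between 13331155 and 33289172 tags (aligned reads). Values are normalised tags, that is, tags per 10000000 in the library, as deposited by the authors. With 1 library per group no difference could be set against a spread between cultures, so no test was made, and 95% intervals cover counting error only. The level of EZH2 itself was not measured in these files, and markers of LNCaP cells could not be placed, as gene positions on hg19 other than the ends of the cluster were not used here.

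HOX genes encode transcription factors that set position along the body axis, and within a cluster they are switched on in the order in which they lie. Where they are silent, they are the textbook targets of Polycomb repressive complex 2 (PRC2), whose catalytic subunit EZH2 trimethylates lysine 27 of histone H3 (H3K27me3). Acetylation of the same lysine (H3K27ac) marks active promoters and enhancers, and one lysine cannot carry both. By RefSeq's gene order, EVX2, another homeobox gene, precedes HOXD13, and HOXD12, HOXD11, HOXD10, HOXD9, HOXD8, HOXD4, HOXD3 and HOXD1 follow, with the microRNA gene MIR10B between HOXD8 and HOXD4 and the long noncoding RNA gene HAGLR between HOXD3 and HOXD1. HOXD13 to HOXD9 are known for limb and urogenital development, and, from mice, HOXD4 and HOXD3 for the hindbrain and neck. The series title asks whether EZH2 has activating roles apart from Polycomb, and the comparison at HOXD concerns a cluster that Polycomb is known to silence.

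PRC2 in mammals is known to gather at stretches rich in unmethylated CG dinucleotides, so the promoters at either end of the cluster are shown with each CG in capitals. They are RefSeq's, on GRCh38.p14, from 250 bases before to 50 after the gene's start, both on the plus strand: HOXD13 at chr2:176092471.0-176092770.0 and HOXD1 at chr2:176188418.0-176188717.0. This build differs from that of the peaks, so the sequences were not laid over them.
HOXD13: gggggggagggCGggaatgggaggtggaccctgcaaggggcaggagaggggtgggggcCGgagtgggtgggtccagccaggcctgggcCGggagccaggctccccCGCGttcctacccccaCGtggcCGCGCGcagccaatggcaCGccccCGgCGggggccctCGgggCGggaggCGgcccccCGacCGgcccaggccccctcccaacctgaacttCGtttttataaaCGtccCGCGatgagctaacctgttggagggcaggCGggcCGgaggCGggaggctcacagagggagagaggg
HOXD1: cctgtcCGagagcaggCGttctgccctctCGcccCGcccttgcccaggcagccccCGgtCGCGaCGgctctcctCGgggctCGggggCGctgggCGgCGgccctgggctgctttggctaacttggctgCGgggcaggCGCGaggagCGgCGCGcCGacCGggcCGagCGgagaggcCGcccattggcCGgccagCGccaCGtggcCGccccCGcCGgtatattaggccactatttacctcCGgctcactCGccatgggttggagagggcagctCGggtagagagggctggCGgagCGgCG
HOXD13 had 24 CG and HOXD1 had 36 in 300 bases, against a median of 14 over 35116 promoters, of which 96.0% held at least 1. Of all promoters, 33.9% had as many as HOXD13 and 12.7% as many as HOXD1. Of the 9 genes, 8 were in the table, and 7 of these were above the median. HOXD8 had 34 CG, HOXD11 27, HOXD3 25, HOXD10 23 and HOXD12 19. HOXD4 was the exception, with 4 CG and a GC content of 47.3%.

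EZH2 was listed along the whole cluster in control cells, and the knockdown library listed fewer peaks there, with fewer tags. Fewer peaks were not particular to HOXD. The whole lists held 9493 EZH2 peaks in shEZH2 and 23060 in control, while at HOXD the shEZH2 number was 76.5% of that in control. The 13 shEZH2 peaks summed to 191.6 normalised tags and the 17 control peaks to 428.6, a log2 ratio of -1.16 (exact binomial interval of the split of 278 and 571 reads, -1.37 to -0.95). Per kb of peak window the levels were 97.6 and 138, a log2 ratio of -0.50. These levels divide the sums by 13 windows of 151 bp in shEZH2 and 17 windows of 183 bp in control, so both the number and the width of the peaks enter. The calling thresholds differed too, at 45.6 normalised tags per kb in shEZH2 and 36.9 in control. Peak numbers, tags per peak and overlap shares of the 2 EZH2 lists are thus not strictly like for like. Scaled instead to the tags in all listed EZH2 peaks, the ratio was -0.10 (-0.31 to 0.11). On that scale the HOXD share of all peak tags was close in both groups, with an interval that includes 0. The median peak held 11.7 tags in shEZH2 and 20.3 in control, beside 9.65 and 10.5 over all peaks of the 2 lists.

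**Figure D1:**
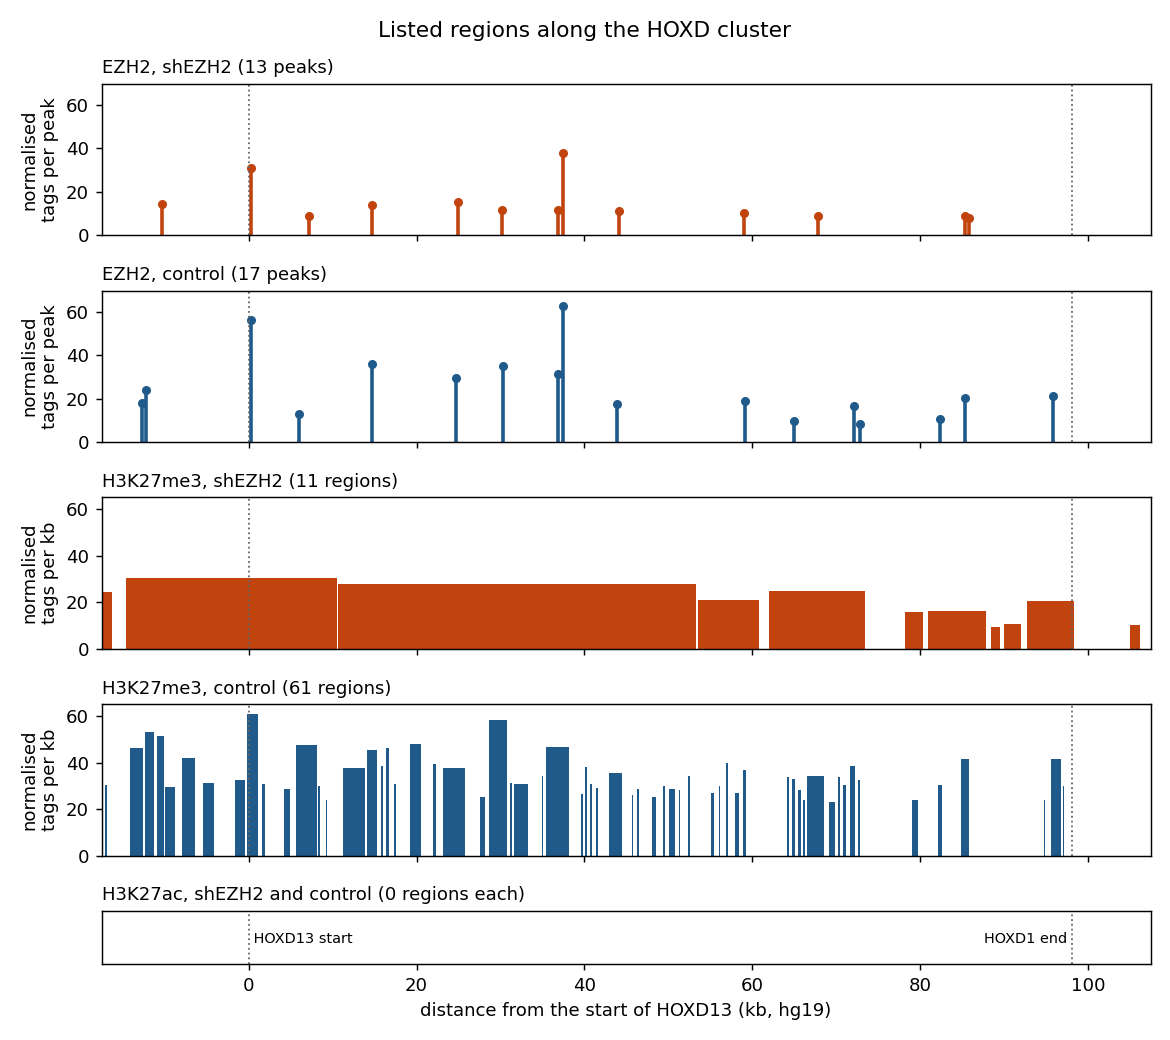
Regions of the deposited lists along the HOXD cluster, by distance from the start of HOXD13 in kb; lines with dots are EZH2 peaks (normalised tags per peak), blocks are H3K27me3 regions (height: normalised tags per kb), with shEZH2 above control for each. The highest EZH2 peaks of both groups lie at the start of HOXD13 and 37.4 kb past it, H3K27me3 is listed along the cluster, and no H3K27ac region is listed.

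The same places stood out in both groups. The first was the start of HOXD13, the gene at the end of the cluster that is known for digit development. The peak there held 31.0 tags in shEZH2, from 154 bp past the gene's start (chr2:176957686-176957836), and 56.3 tags in control, from 207 bp past it (chr2:176957739-176957921). It was 12.44-fold above its local background in shEZH2 and 10.11-fold in control, by the fold in the deposited lists. The other was 37.4 kb further on, at chr2:176994868-176995018 with 37.9 tags in shEZH2 and at chr2:176994839-176995021 with 63.0 tags in control, 17.33-fold and 11.38-fold above background. By their tags they lay at percentiles 94.3 and 95.4 of the shEZH2 list and 98.0 and 98.4 of the control list.

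Between and around these 2 places, the shEZH2 peaks of the first 40 kb past the HOXD13 start held 8.96 to 15.2 tags and the other control peaks there 12.8 to 36.0. In control these were 36.0 tags at 14.7 kb, 29.3 at 24.7 kb, 35.3 at 30.3 kb and 31.5 at 36.8 kb, with a weaker peak of 12.8 at 6.01 kb. Before HOXD13, on the EVX2 side, shEZH2 had 1 peak of 14.5 tags, 10.4 kb away, and control had 2, of 24.0 and 18.0 tags, up to 12.7 kb away. Beyond 40 kb, towards HOXD1, the 5 shEZH2 peaks held 7.58 to 11.0 tags and the 8 control peaks 8.25 to 21.0. Control peaks towards HOXD1 were thus all lower than 7 of the 9 control peaks on the HOXD13 side. The limit of 40 kb was set after the values were seen and describes these lists only.

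Of the 17 control peaks, 8 overlapped a shEZH2 peak (47.1%, exact binomial interval 23.0 to 72.2), beside 23.1% of all control EZH2 peaks and 33.5% of those on H3K27me3. The comparison depends on strength. Of the 13 HOXD peaks with at least 15 tags, 8 (61.5%) were overlapped, and of all control peaks on H3K27me3 with as many tags 62.5% were, so the HOXD share was near the background for peaks of this strength. In the other direction 8 of the 13 shEZH2 peaks (61.5%) lay on a control peak, beside 56.2% of all. In all 8 pairs the tags per kb were lower in shEZH2, beside 71.2% of pairs over the genome. The median log2 ratio was -0.75, beside -0.39 over all 5331 pairs and -0.56 over the 3418 pairs on H3K27me3. In 5 of 8 pairs (62.5%, exact binomial interval 24.5 to 91.5) the level was over 1.5-fold lower, beside 37.5% of all pairs. These backgrounds for pairs were not matched for strength. The HOXD pairs were strong, with a median of 33.4 control tags beside 10.5 over all control peaks. A pair needs a called shEZH2 peak, which limits how low the ratio of a weak control peak can be. Whether HOXD differed from pairs of like strength was not tested.

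The 2 strongest pairs differed least among those on the HOXD13 side. At the HOXD13 start the levels were 205 tags per kb in shEZH2 and 308 in control, a log2 ratio of -0.58 (-1.15 to -0.03). At 37.4 kb they were 251 and 344 per kb (-0.46, -0.97 to 0.05), the interval just reaching 0. The larger differences were at peaks of middle strength between them. At 30.3 kb the levels were 77.5 per kb in shEZH2 and 193 in control (-1.32, -2.21 to -0.49), at 14.7 kb 91.4 and 197 (-1.11, -1.94 to -0.33), and at 36.8 kb 77.5 and 172 (-1.15, -2.06 to -0.31). These intervals overlap those of the strongest pairs, so the order is a description. Towards HOXD1, the pair at 43.9 kb had 72.8 and 94.5 per kb (-0.38), that at 59.1 kb 68.2 and 103 (-0.59) and that at 85.3 kb 59.3 and 111 (-0.90), and the counting interval of each included 0. Of the 8 intervals, 4 lay below 0.

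**Figure D2:**
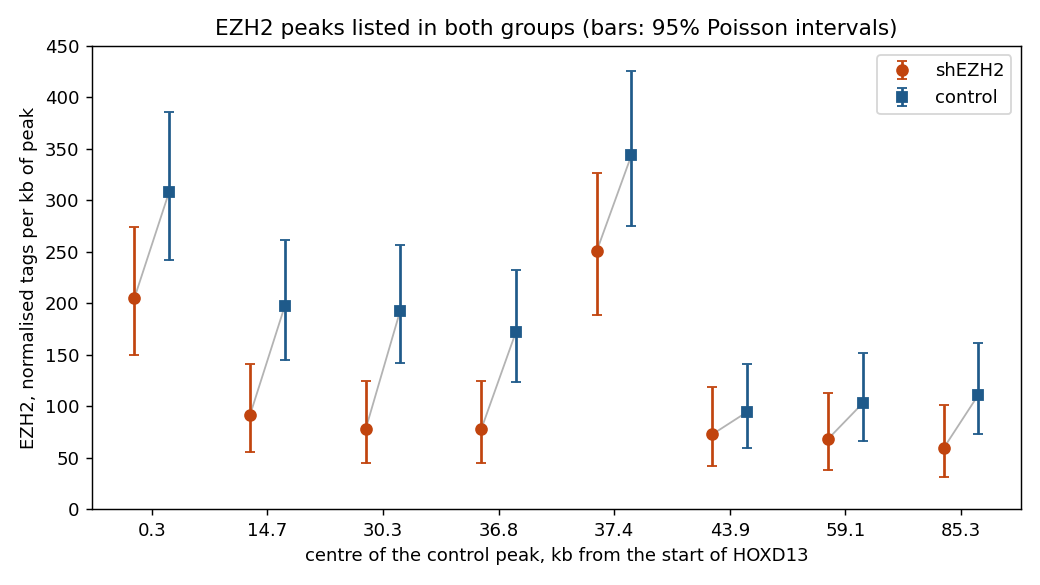
EZH2 level in normalised tags per kb at the 8 places where a shEZH2 peak (left, circles) and a control peak (right, squares) overlap, ordered by kb from the start of HOXD13, with 95% Poisson intervals. All 8 shEZH2 values lie below their control values. The bars are clear of each other only at 14.7 and 30.3 kb, and they just meet at 36.8 kb.

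The 9 control peaks without an overlapping shEZH2 peak were weaker at the median, with ranges that overlapped. They held 8.25 to 29.3 tags with a median of 16.5, against 17.3 to 63.0 and a median of 33.4 for the 8 others. The strongest of the 9, 29.3 tags at 24.7 kb, had a shEZH2 peak of 15.2 tags only 10 bp beside it, so it missed an overlap by that distance. The next, at chr2:176945285-176945467 on the EVX2 side, held 24.0 tags and stood 4.89-fold above its local background, where the authors' call required 4-fold. The control peak at 36.8 kb, at 4.74-fold, was called again. The control peak nearest to HOXD1 was not. HOXD1 is the last gene of the cluster, and the peak at chr2:177053202-177053384, which ends 2251 bp before the gene's end, held 21.0 tags and was 13.05-fold above background, the highest fold of the 17. The nearest listed shEZH2 peak was 9808 bp away, and what the shEZH2 library held there below its call is not in the list. Conversely, 5 shEZH2 peaks lay off any control peak, with 7.58 to 15.2 tags, among them the one 10 bp away and 1 of 7.58 tags 276 bp from a control peak.

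The fold over local background also gives the EZH2 level around each peak, since the deposited local p-values are those of all tags in the peak against tags divided by fold (median difference 0.0024 in control and 0.0025 in shEZH2, in log10 p). This level, over the 10 kb that the authors used, was high on the HOXD13 side and lower from the middle of the cluster on. In shEZH2 it was 12.0 to 19.5 tags per kb (median 16.7) at the 8 peaks up to 40 kb past the HOXD13 start and 5.72 to 11.5 (median 9.59) at the 5 beyond. In control it was 16.8 to 36.3 (median 30.2) at 9 peaks and 8.79 to 13.4 (median 10.4) at 8. The 2 sides did not overlap in either list, though in shEZH2 they nearly met, at 12.0 and 11.5 tags per kb. The limit of 40 kb was set after the values were seen, so this separation is a description only. Over all peaks on H3K27me3 the median was 10.4 in both lists, and the mean level of the library, from the file header, was 4.39 tags per kb in shEZH2 and 4.31 in control.

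The surroundings, like the peaks, were lower in shEZH2 in all 8 pairs, beside 76.4% of all pairs. On the HOXD13 side the 5 log2 ratios ran from -1.06 to -0.77, with 14.5 and 30.3 tags per kb in shEZH2 and control at 37.4 kb and 16.5 and 30.4 at the HOXD13 start. Towards HOXD1 the 3 ratios ran from -0.62 to -0.09, the last with 9.59 and 10.2 tags per kb at 85.3 kb. Over 1.5-fold lower were 6 of 8, beside 24.7% of all pairs. The median was -0.79, beside -0.32 over all pairs and -0.47 over pairs on H3K27me3, backgrounds again not matched for strength. Neighbouring peaks share part of their 10 kb, so these values are not independent of each other, and the level of the surroundings was read only where a peak was called.

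**Figure D3:**
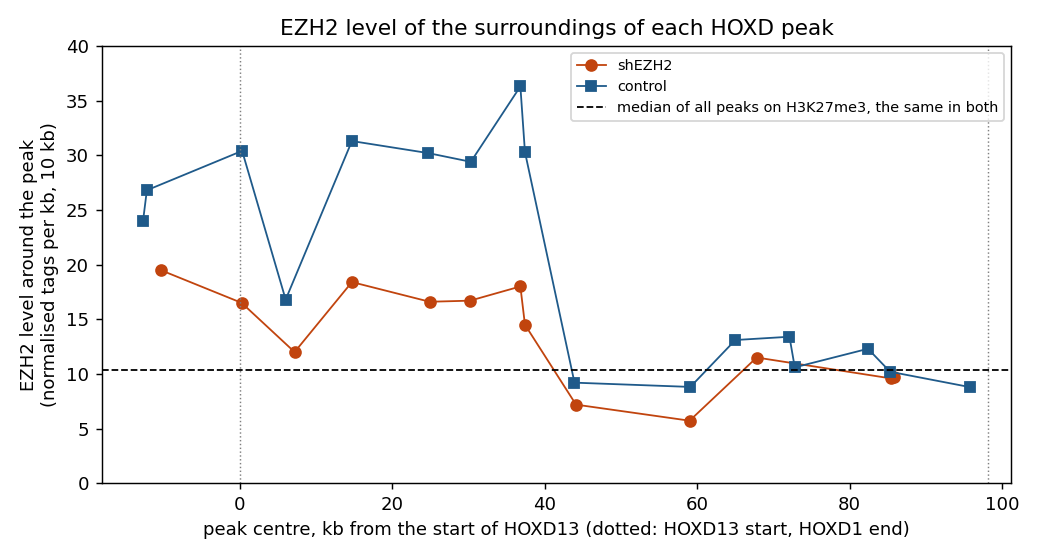
EZH2 level around each HOXD peak (normalised tags per kb of the surrounding 10 kb, from tags divided by the deposited fold) by distance from the start of HOXD13, for shEZH2 (circles) and control (squares); the dashed line is the median of all peaks on H3K27me3, 10.4 in both lists. Control values reach 36.3 on the HOXD13 side and at most 13.4 beyond 40 kb, and shEZH2 values lie lower, most of all on the HOXD13 side.

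All of this EZH2 lay on the mark it writes. All 13 shEZH2 peaks and all 17 control peaks overlapped an H3K27me3 region of their own group, beside 67.8% of all shEZH2 and 44.2% of all control EZH2 peaks. They all overlapped one of the other group as well, beside 60.9% of all shEZH2 and 56.3% of all control EZH2 peaks. The shEZH2 H3K27me3 regions covered 85.5% of the window, so nearly any position there would overlap them. Control H3K27me3 regions covered 36.7% of it. No EZH2 peak of the window lay on H3K27ac, beside 39.7% of all shEZH2 and 34.4% of all control peaks. In shEZH2, 5 of 11 H3K27me3 regions held an EZH2 peak, beside 4.23% of all, and in control 16 of 61 (26.2%), beside 10.3%.

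In both groups the H3K27me3 regions with an EZH2 peak were, at the median, wider and denser than the others in the cluster, with ranges that overlapped. In shEZH2 the 5 with a peak had a median width of 11510 bp and 24.6 tags per kb, and the 6 without one 2086 bp and 13.3 tags per kb. Their levels ran from 16.3 to 30.6 per kb with a peak and from 9.53 to 24.3 without one. In control the 16 with a peak had 1190 bp and 41.7 tags per kb, and the 45 others 287 bp and 30.2. Here the levels ran from 30.5 to 60.7 per kb with a peak and from 22.9 to 51.4 without one. Over all regions the median widths with and without a peak were 5147 and 1511 bp in shEZH2 and 784 and 197 bp in control. The median levels with and without a peak were 22.1 and 11.4 tags per kb in shEZH2 and 34.1 and 28.5 in control. The densest HOXD region of control, with 60.7 tags per kb, began just before HOXD13 and covered its start (chr2:176957354-176958606, 76.0 tags). That with the most tags, 128, was the 2732 bp around the peaks at 36.8 and 37.4 kb (chr2:176992909-176995641).

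The H3K27me3 lists were not made alike. Control regions were joined from windows of 150 bp at a threshold of 26.0 normalised tags per kb, and shEZH2 regions from windows of 1000 bp at 9.53 per kb, so widths, sums and levels per kb differ by construction. With this, H3K27me3 covered 85.5% of the window in shEZH2, in 11 regions with 2967 tags over 117 kb, one of which begins outside the window. In control it covered 36.7%, in 61 regions with 1782 tags over 45.8 kb. The log2 ratio of the sums was 0.74, and that per kb of covered length was -0.62, with 25.3 and 38.9 tags per kb. The sign thus depended on the scale, and no direction is given for the mark.

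The shEZH2 list held its widest H3K27me3 regions on the HOXD13 side. From 14.6 kb before the HOXD13 start to 53.3 kb past it, the shEZH2 list held 2 regions only 28 bp apart. They are chr2:176942942-176968066, with 769.8 tags (30.6 per kb), and chr2:176968095-177010815, with 1178.3 tags (27.6 per kb), the widest of the window. Further on the shEZH2 level was 20.8 per kb from 53.5 to 60.8 kb, 24.6 from 62.0 to 73.5 kb, 16.3 from 81.0 to 87.9 kb and 20.4 from 92.7 kb to just past HOXD1. The control list covered 54.8% of the first 40 kb past the HOXD13 start and 25.6% of the rest up to the end of HOXD1, where shEZH2 regions covered 99.9% and 85.2%. A dense region did not always hold an EZH2 peak of its own group. The first shEZH2 region, chr2:176929769-176941272, most of which lies before the window, had 24.3 tags per kb and no shEZH2 peak. It did hold 3 control EZH2 peaks, all outside the window. Control regions without a control peak reached 51.4 and 48.1 per kb, against 46.9 in the region of the strongest control peak. That of 51.4 per kb held the shEZH2 peak of 14.5 tags on the EVX2 side. The longest stretch with no control region inside the cluster ran from 85.9 to 94.8 kb. The shEZH2 list held 2 regions wholly within it, of 9.53 and 10.7 tags per kb.

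Of the 61 control regions, 61 overlapped a shEZH2 region, beside 94.1% of all, and 8 of the 11 shEZH2 regions overlapped a control region, beside 36.8%. The 3 others, with 9.53, 21.7 and 12.6 tags, were also the 3 of lowest tag number. In each of the 8 shared spans the shEZH2 region held more tags than the control regions inside it together. The same held in 99.0% of spans over the genome. The first HOXD span begins before the window, and its 143.3 control tags come from 4 regions, of which that in the window held 6.01. Control tags between the narrow control regions are not in the list, so a difference in calling and one in the mark cannot be told apart. The excess was smallest in the 2 wide spans on the HOXD13 side, with 769.8 and 580.2 tags (log2 ratio 0.41) and 1178 and 847.4 tags (0.48), of which control regions covered 54.9% and 49.8%. In the other 6 the ratio was 0.73 to 1.55, at 20.5% to 46.6% covered. Over all 8601 spans wider than 5 kb the median was 1.37, at 21.7% covered. The listed control tags are a lower limit of what control held there.

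**Figure D4:**
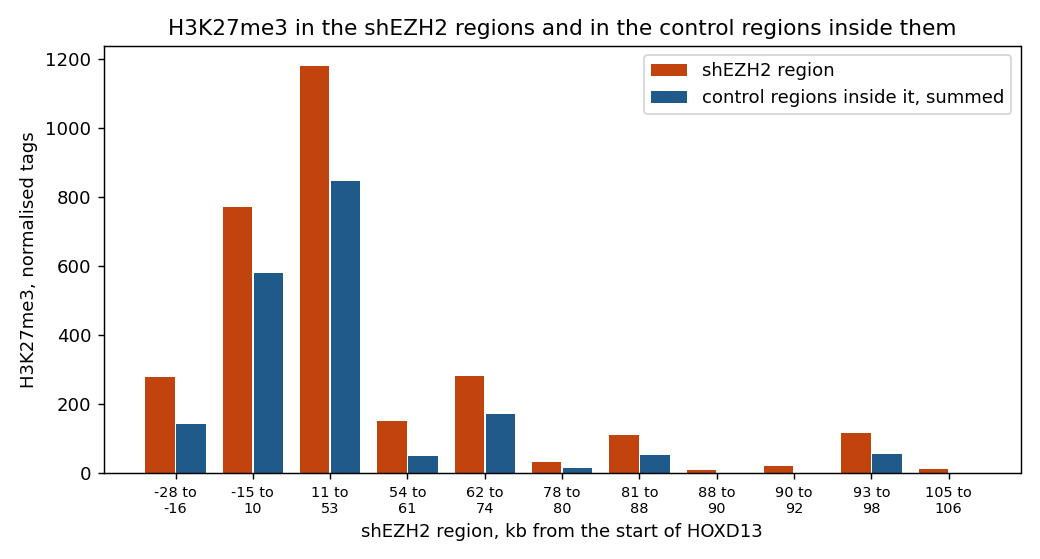
H3K27me3 tags (normalised) of each of the 11 shEZH2 regions (left bars) and of the control regions inside it, summed (right bars), by distance from the start of HOXD13; 3 shEZH2 regions hold no control region and have no right bar. The control sums lack the tags between control regions, and they come nearest to the shEZH2 values in the 2 wide regions from 14.6 kb before the HOXD13 start to 53.3 kb past it. The first region begins before the window, and its right bar includes control regions outside the window.

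H3K27ac was absent from both lists over the whole window. The nearest shEZH2 regions were chr2:176865722-176867764, 89.8 kb before the HOXD13 start with 133 tags, and chr2:177133864-177135364, 78.2 kb past the end of HOXD1 with 202 tags. Control regions lay inside both of these, with 83.1 tags summed over 2 regions in the first and 184 tags in the other. The stretch without H3K27ac was 266 kb long in each list, and 3.08% of the stretches between H3K27ac regions were as long in shEZH2 and 3.72% in control. The thresholds in the file headers equal 9.47 normalised tags per kb of the calling window in shEZH2 and 34.4 in control, and a listed region can average less, such as 29.5 per kb in the last control region before the window. An acetylation level too low for a call is not in the lists, and expression of the genes was not measured here.

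At the edges of the window, the control EZH2 list had a peak of 82.0 tags per kb 2012 bp before it, and its first peak inside had 98.4 tags per kb. On the far side the next control EZH2 peak after that of 21.0 tags near HOXD1 came 78.4 kb past the end of HOXD1, at chr2:177134040-177134222 with 9.75 tags, within the H3K27ac region there. The shEZH2 list had its nearest EZH2 peaks 907308 bp before the window and 437668 bp after it, while its first and last inside held 14.5 and 7.58 tags. The H3K27me3 regions next to the window held 9.15 and 11.8 tags in shEZH2 and 14.1 and 3.91 in control.

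Among 21326 windows of 125 kb that held a listed region on the main chromosomes, HOXD was among the richest in EZH2 peaks in both groups. Only 11 windows had more than its 13 shEZH2 peaks and 2 had more than its 17 control peaks. Counting ties and HOXD itself, 0.0703% of windows had at least as many shEZH2 peaks and 0.0563% at least as many control peaks. By EZH2 tags HOXD had rank 66 in shEZH2 and 30 in control, and by H3K27me3 tags rank 76 and 82. The windows were tiled from that of HOXD, so HOXD lies whole in its window while other clusters may be split, which favours its ranks. Of the windows, 29.1% held no H3K27ac region in shEZH2 and 39.9% none in control. Among the 118 windows with at least 10 control EZH2 peaks, 34 held none in either list. In these 118 windows the number of shEZH2 peaks was, at the median, 52.9% of that in control, against 76.5% at HOXD. The median log2 ratio of EZH2 tags was -1.33 (quartiles -2.06 and -0.89), so the -1.16 of HOXD was within the middle of the range, with 69 of 117 windows lower. These windows were taken by their control peaks alone, which favours low ratios and low shEZH2 peak numbers, whereas HOXD was taken by position. The place of HOXD among them is thus a description only.

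**Figure D5:**
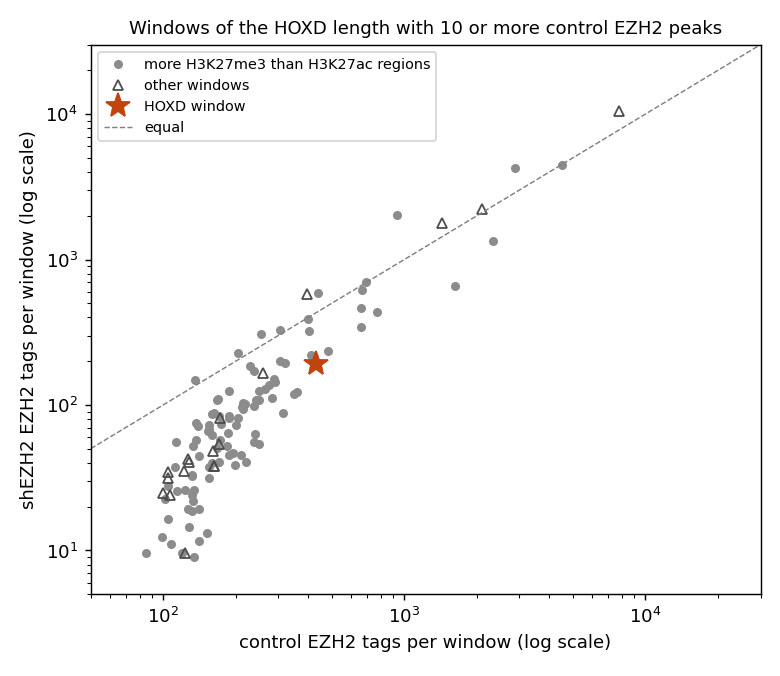
EZH2 tags in shEZH2 (vertical, log scale) and in control (horizontal, log scale) summed over listed peaks in each window of 125 kb with 10 or more control EZH2 peaks; 1 of the 118 windows, with no shEZH2 peak, is not drawn. The HOXD window (star), with 191.6 tags in shEZH2 and 428.6 in control, lies below the line of equal values, within the spread of the other windows. The windows were taken by control peaks alone, which favours values below the line.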

How the data were processed

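The 6 peak lists were made by the authors from BWA 0.6.1 alignments to hg19 with HOMER 4.1, per the submitters' processing notes, each from 1 library and without an input, per the file headers. EZH2 peaks are fixed windows at a false discovery rate of 0.001 and at least 4-fold above the surrounding 10 kb. Histone regions were joined from windows of 150 bp (control, false discovery rate 0.001) or 1000 bp (shEZH2, Poisson probability 0.001), per the file headers. The deposited signal is the tags of a region per 10000000 of the library. The deposited score served only to take the upper 50% of a list. The deposited fold and p-value against the surroundings were used as given. The deposited focus fraction, region width apart from its use as width, and clonal ratio were not used.

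Overlap meant at least 1 shared bp. EZH2 normalised tags multiplied by library size over 10000000 came out whole (within 0.1) in 100% of HOXD EZH2 peaks, and these reads gave the intervals (Poisson for 1 level, exact binomial for the split of 2). Windows of 125 kb were tiled from the HOXD window, with regions placed by their midpoint. Members, lists and the named regions (all EZH2 peaks, and the widest, richest and unshared regions) were chosen with earlier results of these data known. Overlaps and ratios were tested on simulated data. Gene order and promoters are from RefSeq on GRCh38.p14, and no position was carried between builds. Other HOX clusters and cell markers were not used here. Scripts ran in Python 3.11.15 with scipy 1.17.1, pandas 2.3.3, numpy 2.4.6 and matplotlib 3.10.9.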

Additional observations from a re-analysis of the deposited data

How the results depend on the processing

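The log2 ratio of EZH2 tags in HOXD, shEZH2 over control, was -1.16. It was -0.50 per kb of peak window, -0.10 when scaled to the tags in all listed EZH2 peaks and -1.39 for peaks with at least 10 tags. It was -1.13 between the start of HOXD13 and the end of HOXD1 and, chosen after seeing the data, -1.03 for overlapping pairs. It was negative in each of these 5 settings, though with an interval reaching 0 under the second scaling. The ratio of H3K27me3 tags, 0.74, reversed to -0.62 per kb of covered length and to -0.62 when scaled to the tags in all listed H3K27me3 regions. It was 0.91 between the start of HOXD13 and the end of HOXD1, 0.75 for the upper 50% of each list by score and, chosen after seeing the data, 0.59 for regions wholly inside the window and 0.61 over shared spans. The 2 groups were called with different windows and thresholds, so none of these values gives a direction for H3K27me3. Of the control EZH2 peaks of HOXD, 47.1% were called again, a share that was 29.4% when 50% of the peak had to be covered and 52.9% to 53.3% in the other 3 settings. The share on H3K27me3 was 100% in each of 4 settings. H3K27ac gave no ratio in any setting, as neither list held a region. No paired analysis was possible because each group analysed was 1 library. Depth limits the single peaks: with 11 to 84 reads each, 4 of 8 pairs had counting intervals that included 0.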
